A study of Mus musculus with 16 samples.

Results

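The cells described here were bone marrow progenitors of mice that carried the primary granule gene Mpo together with Irf8, a transcription factor of the monocyte and dendritic lines, and with Ly86 or Csf1r, a surface protein paired with RP105 and the receptor for the cytokine M-CSF. A cell was taken when it had 750 or more detected genes and at most 10% of its unique molecular identifiers (UMIs, 1 per captured transcript) from mitochondrial genes, 5 or more UMIs of Mpo, 1 or more of Irf8, and 1 or more of Ly86 or Csf1r. At most 2 of the 5 later monocyte genes Fn1, F13a1, Ccr2, Ly6c2 and Ms4a6c could be detected, and the neutrophil granule genes Camp, Ngp and Ltf had to sum to under 30 UMIs. In the 8 libraries 94917 cells passed the limits on genes and mitochondrial UMIs, and 1188 of these, 1.25%, met the rest of the rule. The cells were thus chosen by their own UMI counts of these genes. The rule had been proposed for monocyte-primed progenitors. Monocyte genes outside the rule were not, as a list, above their level in granulocyte progenitors, a gate without a limit on the later monocyte genes. The cells are therefore called Mpo+ Irf8+ progenitors.

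All mice were C57BL/6 animals that the labels put between 6 and 12 weeks of age. WT mice were Tet2fl/fl, with intact floxed alleles, and Tet2-KO mice were Vav-Cre-Tet2-/-, in which Cre driven by the Vav promoter deletes Tet2 throughout the blood system. Each genotype received intraperitoneal vehicle or recombinant IL1β at 500 ng per mouse per day for 5 weeks, and the question of the design was how chronic IL1β acts on marrow progenitors with and without Tet2. Red cells were lysed, lineage-positive cells were depleted, and cells of 2 mice of the same group were marked with antibody hashtags and pooled in each droplet library, giving 2 libraries and 4 mice per group. Cre was present only in Tet2-KO mice, so an effect of the transgene and of the deletion cannot be told apart, and each library held 1 group only, so a library effect and a group effect cannot be told apart either. P-values below therefore measure the spread between mice that in part shared a library.

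Progenitors that express Mpo sit where the granulocyte and monocyte lines part. Irf8 favours monocytes and dendritic cells at the expense of neutrophils, Csf1r receives the signal that sustains monocytes and macrophages, and Mpo, Prtn3, Elane and Ctsg encode the enzymes of the primary granules made at the promyelocyte stage. IL1β is sensed through its receptor and the adaptor MyD88, which leads to the release of NF-κB from its inhibitor IκBα. NF-κB then induces, besides cytokines, the genes for its own inhibitors, among them IκBα (Nfkbia) and the ubiquitin-editing enzyme A20 (Tnfaip3). Tet2 oxidises methylated cytosine and is among the genes most often mutated in clonal hematopoiesis.

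The libraries held 56010493 to 99197115 UMIs. Between 64 and 275 Mpo+ Irf8+ progenitors came from each library, with a median of 6904 UMIs per cell. Hashtags assigned 901 of the 1188 cells to 1 mouse, while 212 carried no clear hashtag and 75 carried both. The number of assigned cells per mouse ran from 10 to 126 and their summed UMIs from 79739 to 850160. A gene at 10 CPM (UMI counts scaled to a common library total) thus rested on about 1 UMI in the mouse with fewest. CPM of single mice use totals adjusted by TMM scaling, and CPM of libraries and of cell gates use plain totals. Of the 16 mice, 3 had under 20 such cells. In a WT vehicle library and a WT IL1β library that each held a female and a male mouse, the UMIs of Xist and of Y-linked genes showed that some hashtag calls crossed between the mice of the pool, which were always of the same group. Library pairs shared 11 to 57 cell barcodes. No doublet caller was run, and the effect of leaving out the cells with most UMIs is given with the processing alternatives.

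The genes of the rule are described without a test, since they chose the cells. Just inside and just outside its thresholds there were 46 cells with 5 Mpo UMIs against 67 otherwise qualifying cells with 4, and 402 cells with 1 Irf8 UMI against 901 with none. For Ly86 and Csf1r together 788 cells rested on 1 UMI and 3017 otherwise qualifying cells had none, and 815 cells had 2 of the later monocyte genes against 2205 with 3. The median cell held 29 Mpo UMIs, so that Mpo was far from its threshold in most cells and Irf8, Ly86 and Csf1r were close to theirs. Free RNA in the droplets can supply such single UMIs. Among cells that met the rest of the rule, Irf8 was detected in 30.6% to 73.8% per library, against 3.21% to 7% of erythroid cells (5 or more UMIs summed over a small set of erythroid genes, and under 5 of Mpo), which should lack it. Ly86 or Csf1r was detected in 15.9% to 41.6% of the otherwise qualifying cells, against 0.954% to 2.58% of erythroid cells for Ly86 and 0.874% to 1.57% for Csf1r. Erythroid cells were the deeper of the pair, with library medians of 7500.5 to 13594.5 UMIs against 5439.5 to 8379 in the progenitors.

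Within the rule cells qualified through different genes. Ly86 without Csf1r was found in 547 cells, Csf1r without Ly86 in 449 and both in 192. With 788 cells at 1 UMI of the 2 genes together, this split does not show whether the cells were uniform. Of the later monocyte genes Ly6c2 was detected in 741 cells, Ms4a6c in 653, F13a1 in 373, Ccr2 in 166 and the matrix protein gene Fn1 in 4. Granule genes were found in most cells, with Prtn3 in 99.1% and Ctsg in 97.0% of cells and the neutrophil elastase gene Elane in 78.3%. The progenitor surface gene Cd34 was detected in 72.1%, the proliferation gene Mki67 in 60.9%, the stem cell factor receptor gene Kit in 48.3% and the receptor gene Flt3 in 27.8%. In erythroid cells Ctsg was found in 14.0% to 23.9% by group and Elane in 18.7% to 41.3%. Cd34 was found in 3.19% to 3.80% of them and Flt3 in 1.10% to 1.90%. Such a share was not drawn up for Prtn3, Mki67, Kit or the mature cell genes that follow. Genes of more mature monocytes were found in fewer cells, the cathepsin gene Ctss in 18.8% and the fractalkine receptor gene Cx3cr1 in 12.96%, and the dendritic cell genes Cd74, H2-Aa and Siglech in 2.78%, 1.94% and 1.52%. The way in which cells qualified also differed by group. Csf1r without Ly86 made up 21.8% of the cells in WT vehicle, 42.7% in WT IL1β, 34.1% in Tet2-KO vehicle and 69.1% in Tet2-KO IL1β libraries. The level of Ly86 in the 4 WT vehicle mice was 202, 167, 154 and 136 CPM, and in the 4 Tet2-KO IL1β mice 65.8, 62.4, 25.2 and 29.4 CPM, with WT IL1β mice at 77.7 to 128 and Tet2-KO vehicle mice at 102 to 162 CPM. Irf8 ran from 244 to 524 CPM in WT vehicle mice and from 237 to 403 CPM in Tet2-KO IL1β mice. Every comparison below is therefore one of cells that passed the same rule, in part through different genes.

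The label was checked against 3 gates of neighbouring cells. Granulocyte progenitors had 5 or more Mpo UMIs with Elane and Ms4a3 detected (27250 cells), monocytes had 3 or more of the later monocyte genes with Ly86 or Csf1r (13793 cells), and immature myeloid progenitors had Mpo and Cd34 without Ms4a3 or Irf8 (1288 cells). The immature gate also held RNA of other lines. The platelet gene Pf4 averaged 1356 CPM there against 67.7 CPM in the Mpo+ Irf8+ progenitors, which were higher in 1 of 8 libraries. The eosinophil gene Prg2 averaged 290 against 11.2 CPM, with the Mpo+ Irf8+ progenitors higher in 3 of 8. The granulocyte progenitor gate set no limit on the later monocyte genes, so it could hold cells of the monocyte gate too. In all 8 libraries 4 of the 5 later monocyte genes, which the rule capped, were lower in the Mpo+ Irf8+ progenitors than in that gate. Mpo+ Irf8+ progenitors were left out of each gate. Of them 62.0% carried Ms4a3 and 693 (58.3%) both Elane and Ms4a3, so that most would otherwise have met the granulocyte progenitor gate. Of 12 monocyte genes that the rule did not use, 1, the adhesion gene Emb, was above its level in granulocyte progenitors in all 8 libraries, 2 were below in all 8 and 9 were mixed. Against monocytes none was above and 11 were below in all 8 libraries, and against immature myeloid progenitors 5 were above and none was below. These comparisons were not independent of the gates. The monocyte gate asked for 3 or more later monocyte genes, where the rule allowed at most 2. The immature gate asked for no Irf8, which the rule required. The lysozyme gene Lyz2 averaged 101 CPM over libraries in the Mpo+ Irf8+ progenitors and 1210 CPM in monocytes, and the transcription factor gene Klf4 22.5 against 167 CPM. All 7 granulocyte progenitor genes, among them Elane and Ms4a3, which define the comparison gate, lay below their level in granulocyte progenitors in all 8 libraries, and 5 of the 7 lay above their level in monocytes. Neither marker list set the cells beside monocytes, from which the rule itself had set them apart.

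**Figure D1:**
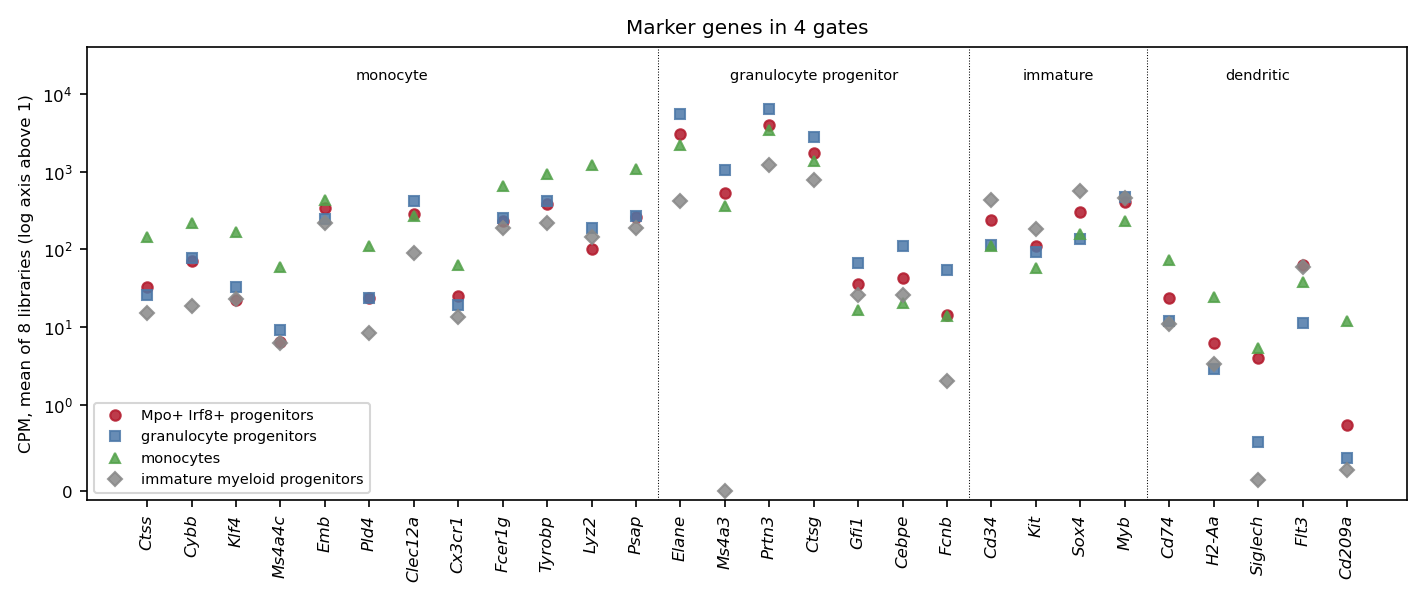
Mean CPM over the 8 libraries (y axis, logarithmic above 1 CPM and linear below) of marker genes that the rule did not use, in Mpo+ Irf8+ progenitors and 3 comparison gates; dotted lines divide the marker lists. Red circles lie below the granulocyte progenitors for all 7 granulocyte progenitor genes and above them for Emb, Cd34, Sox4 and Flt3.

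Set against granulocyte progenitors, as a description, 8 genes led those higher in the Mpo+ Irf8+ progenitors. Flt3, the receptor for a cytokine of early lymphoid and dendritic progenitors, averaged 63.1 against 11.3 CPM, the chromatin organiser gene Satb1 91.3 against 37.6, the survival gene Bcl2 134 against 58.4, Sox4 300 against 136 and Mef2c, a transcription factor gene of lymphoid and monocyte progenitors, 211 against 101 CPM. The chemokine gene Ccl4 averaged 62.6 against 26.9 CPM and Tsc22d1 62.5 against 27.9 CPM. Each of these was higher in all 8 libraries, and the NF-κB regulator gene Nfkbiz (74.8 against 26.7 CPM) in 7 of 8. The 4 markers of immature myeloid cells were split, with 2 above granulocyte progenitors in all libraries, 1 below in all and 1 mixed. Lower in all 8 were genes of basophils and eosinophils and of late granulocyte progenitors: the eosinophil granule gene Prg2 (11.2 against 183 CPM), the mast cell carboxypeptidase gene Cpa3 (41.3 against 133), the basophil protease genes Prss34 (161 against 461) and Mcpt8 (147 against 393), and Cebpe (42.7 against 112), a factor needed for secondary granules. Against monocytes the cells were higher in all 8 libraries for Kit (112 against 57.0 CPM), Adgrg1 (117 against 42.9), a receptor gene of stem and progenitor cells, and Cd27 (80.5 against 36.0), and lower in all 8 for Lgals3 (11.05 against 322), S100a4 (22.6 against 464) and Chil3 (16.2 against 143).

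The share of Mpo+ Irf8+ progenitors among a mouse's assigned cells was lower in mice given IL1β, by a difference that did not pass correction. It was 2.57%, 1.43%, 2.48% and 1.80% in WT vehicle mice and 1.12%, 0.805%, 0.949% and 1.34% in WT IL1β mice. In Tet2-KO mice it was 1.16%, 3.49%, 2.26% and 2.54% with vehicle and 1.19%, 1.36%, 0.644% and 0.749% with IL1β. Every WT IL1β mouse lay below every WT vehicle mouse, whereas in Tet2-KO 1 vehicle mouse lay among those given IL1β. The WT groups overlapped without high-UMI cells and under a stricter rule of 10 Mpo and 2 Irf8 UMIs (exact permutation p = 0.0571 for both). With cells thinned to 5000 UMIs they overlapped too (exact permutation p = 0.229), and there the Tet2-KO groups did not (exact permutation p = 0.0286, adjusted 0.114). In WT the mean fell from 2.07% ± 0.548 (SD, n = 4) to 1.05% ± 0.229, a difference of -1.02 percentage points (two-sided exact permutation p = 0.0286, the smallest that 4 against 4 mice allow, and 0.114 adjusted over the 4 comparisons). In Tet2-KO it was 2.36% ± 0.959 with vehicle and 0.986% ± 0.344 with IL1β (difference -1.38 percentage points, exact permutation p = 0.0857, adjusted 0.171, or -0.747 with libraries as replicates). Between the genotypes the means differed by 0.29 percentage points with vehicle (exact permutation p = 0.629) and by -0.066 with IL1β (exact permutation p = 0.771). Neither had a stable sign. The vehicle difference was -0.0865 without Tet2-KO vehicle mouse 2 and -0.287 as a share of the cells with 5 or more Mpo UMIs, and the IL1β difference 0.0284 without WT IL1β mouse 4 and 0.0127 without Tet2-KO IL1β mouse 4. As a share of the cells with 5 or more Mpo UMIs the differences with IL1β were -3.30 percentage points in WT and -3.22 in Tet2-KO (exact permutation p = 0.0286 and 0.0571, both 0.114 adjusted over 4). Fewer such cells and less Irf8, Ly86 or Csf1r RNA per cell cannot be told apart in a count made with these genes, and the share also moves when another population of the marrow grows.

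**Figure D2:**
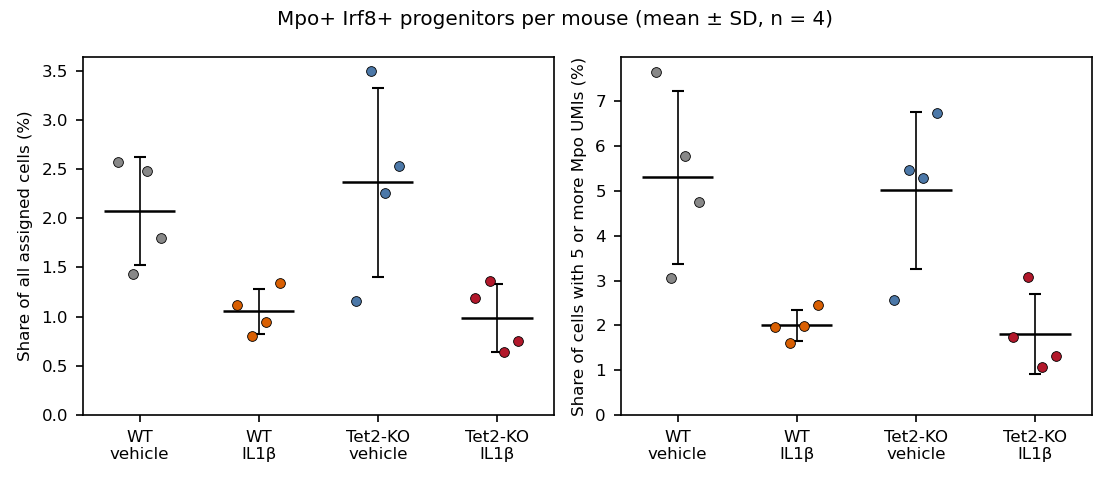
Percent of all assigned cells (left, y axis) and of cells with 5 or more Mpo UMIs (right) that met the rule, 1 point per mouse, with the mean and SD of the 4 mice per group. The 4 WT IL1β mice lie at 0.805% to 1.34% of assigned cells, below all 4 WT vehicle mice at 1.43% to 2.57%.

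UMIs of the assigned cells were summed per mouse and 6310 genes were tested, the genes of the rule left out. Of these, 155 rose with IL1β in WT (2.46% of those tested) and 240 fell (3.8%), and in Tet2-KO 351 rose (5.56%) and 437 fell (6.93%), at an adjusted p under 0.05 by edgeR's quasi-likelihood test. Counts of called genes on the lists below are to be read against these shares. The median log2 fold change of all tested genes was 0.037 in WT and 0.030 in Tet2-KO. The 4 IL1β mice lay wholly above the 4 vehicle mice for 5.59% of tested genes in WT and 7.08% in Tet2-KO, and wholly below for 6.39% and 8.76%. The counts moved with the animals and cells used. They were 125 in WT and 418 in Tet2-KO under the stricter rule, 194 and 331 with cells thinned to 5000 UMIs, and 117 and 401 with libraries as replicates. Leaving out WT vehicle mouse 1, 3 or 4 or WT IL1β mouse 3 brought the WT count from 395 to 150, 246, 234 and 151, and without the pair of WT libraries whose hashtag calls crossed, which left 2 mice per WT group, it was 32. In Tet2-KO the count of 788 came to 433 and 392 without vehicle mouse 3 or 4 and to 507 and 432 without IL1β mouse 1 or 2. The share of mitochondrial UMIs in the cells moved with treatment, with mouse medians of 3.23% to 4.28% in the vehicle groups and 5.00% to 5.98% in the IL1β groups, and its part in the results was not tested.

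NF-κB target genes rose with IL1β in both genotypes, among them genes that restrain NF-κB. Nfkbia, the gene for IκBα on chromosome 12 (55489410 to 55492647, GRCm38, minus strand), stood at 33.7, 51.5, 42.9 and 23.5 CPM in WT vehicle mice and at 92.3, 477, 346 and 432 CPM in WT IL1β mice. In Tet2-KO mice it stood at 53.7, 34.9, 40.3 and 33.4 CPM with vehicle and 570, 245, 534 and 213 CPM with IL1β. All IL1β mice lay above all vehicle mice of their genotype, and WT IL1β mouse 1 was the lowest of the 8 treated animals. The log2 fold change was 3.14 ± 0.40 (SE, adjusted p = 1.6e-05) in WT and 3.22 ± 0.37 (adjusted p = 6.1e-06) in Tet2-KO.

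Tnfaip3, the gene for A20, which removes the ubiquitin chains that carry the IL1 signal, was nearly absent without IL1β. WT vehicle mice had 1.53, 0, 1.43 and 1.68 CPM, 3 UMIs in all, and WT IL1β mice 22.7, 157, 77.7 and 108 CPM. The ratio of the summed counts was 46.0, with a 95% counting interval of 15.2 to 228. Tet2-KO mice had 7.68, 8.73, 1.3 and 2.79 CPM with vehicle and 203, 74.9, 141 and 55.6 CPM with IL1β, a log2 fold change of 4.54 ± 0.55 (adjusted p = 8.6e-06). Nfkbiz, which encodes the nuclear protein IκBζ that serves NF-κB at secondary response genes, had 23, 0, 4.29 and 5.04 CPM in WT vehicle mice and 59.9, 198, 128 and 60.7 CPM in WT IL1β mice, and 28.2, 8.73, 3.9 and 5.57 against 335, 123, 151 and 81.8 CPM in Tet2-KO. Its log2 fold change was 3.25 ± 0.54 in WT (adjusted p = 0.00031) and 4.01 ± 0.49 in Tet2-KO (adjusted p = 8.6e-06). Treated and vehicle mice did not overlap for either gene in either genotype. Tnip3, for a protein that binds A20, was found in 1 of 8 vehicle mice, at 2.86 CPM, and in all 8 IL1β mice, at 3.24, 95.4, 47.8 and 20.2 CPM in WT and 203, 22.9, 55.4 and 36 CPM in Tet2-KO. The count ratio in WT was 30.6 (counting interval 7.86 to 262). In Tet2-KO, where vehicle mice had no UMI, it was at least 49.9-fold higher against a floor of 3 UMIs over the group, and with the counting error of both groups the lower limit of the ratio was 39.5. Counting intervals and floors cover counting error only.

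The promoters of 4 of these genes are shown because each holds a match to the κB consensus, the DNA letters that NF-κB dimers bind. They are RefSeq windows on GRCm38.p6 of 250 bases before to 50 after the transcription start, 5′ to 3′ on the strand of the gene, with matches on either strand in capitals (overlapping matches run together).
Nfkbia, chr12:55492598-55492897, minus strand: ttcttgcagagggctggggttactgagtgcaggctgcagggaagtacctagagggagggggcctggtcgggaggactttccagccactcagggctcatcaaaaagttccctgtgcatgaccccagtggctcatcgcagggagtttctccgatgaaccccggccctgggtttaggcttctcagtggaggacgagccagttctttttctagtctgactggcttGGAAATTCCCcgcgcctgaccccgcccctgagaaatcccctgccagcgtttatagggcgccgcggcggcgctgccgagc
Tnfaip3, chr10:19015361-19015660, minus strand: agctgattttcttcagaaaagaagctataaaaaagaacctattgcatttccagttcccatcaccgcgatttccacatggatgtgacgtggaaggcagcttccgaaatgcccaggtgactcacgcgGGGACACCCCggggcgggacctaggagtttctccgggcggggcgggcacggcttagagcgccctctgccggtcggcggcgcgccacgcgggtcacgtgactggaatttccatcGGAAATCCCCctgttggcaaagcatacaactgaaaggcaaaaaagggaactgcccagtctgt
Tnip3, chr6:65590148-65590447, plus strand: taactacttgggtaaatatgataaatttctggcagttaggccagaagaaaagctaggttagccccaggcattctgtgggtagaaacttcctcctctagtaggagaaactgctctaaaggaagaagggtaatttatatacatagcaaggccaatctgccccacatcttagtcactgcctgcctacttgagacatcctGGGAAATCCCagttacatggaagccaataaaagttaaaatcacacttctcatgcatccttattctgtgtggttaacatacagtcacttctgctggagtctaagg
Cxcl2, chr5:90903649-90903948, plus strand: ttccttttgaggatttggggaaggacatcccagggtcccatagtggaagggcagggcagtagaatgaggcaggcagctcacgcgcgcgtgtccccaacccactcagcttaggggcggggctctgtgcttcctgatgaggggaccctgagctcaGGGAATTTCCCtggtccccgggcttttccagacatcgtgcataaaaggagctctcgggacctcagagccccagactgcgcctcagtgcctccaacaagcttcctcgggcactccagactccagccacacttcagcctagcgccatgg
Such a match lay in 8.46% of all 32851 promoter windows of the table, in 9.77% of the windows of tested genes that were not called in WT, in 13.6% of those of genes that rose with IL1β in WT (23 of 169) and in 11.4% of those that fell. For Tet2-KO the shares were 11.7% (46 of 393) of genes that rose, 10.0% of those that fell and 9.79% of those not called. A match is a run of letters, not a measured binding site, and these shares were not tested.

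Among 19 tested genes of a list of 30 NF-κB subunits and targets, 8 rose and none fell in WT (median log2 fold change 0.80), and 12 rose and 1 fell in Tet2-KO (median 1.43). The WT median was 0.70 to 1.69 over the alternatives, among them 1.35 without WT vehicle mouse 1, 1.53 without the pair of WT libraries whose hashtag calls crossed and 1.69 with cells thinned to 5000 UMIs. Those that rose in WT were Nfkbia, Tnfaip3, Nfkbiz, Tnf, Cxcl2, Birc3, Ikbke and the subunit gene Nfkb1, and all 8 rose in Tet2-KO too, where Rel, Ccl4, Clec4e and Gadd45b joined them. Tnf, the gene for the cytokine TNF, had 6.13, 25.7, 1.43 and 0 CPM in WT vehicle mice and 11.3, 68.2, 68.7 and 81 CPM in WT IL1β mice, with an overlap at WT IL1β mouse 1 (log2 fold change 3.60 ± 0.79, adjusted p = 0.0054). In Tet2-KO it had 12.8, 2.18, 1.3 and 5.57 CPM with vehicle and 115, 20.8, 111 and 32.7 CPM with IL1β, without overlap (3.53 ± 0.68, adjusted p = 0.0013). Cxcl2, for a chemokine that draws neutrophils, reached 13, 61.4, 38.8 and 13.5 CPM in WT IL1β mice and 176, 37.4, 35.3 and 13.1 CPM in Tet2-KO IL1β mice, against at most 12.9 and 5.12 CPM in the vehicle mice, and rose by 4.09 ± 0.69 on the log2 scale in Tet2-KO (adjusted p = 0.00043). The gene that fell in Tet2-KO was Sod2, for the mitochondrial superoxide dismutase, at 99.8 to 136 CPM with vehicle and 54.9 to 106 CPM with IL1β.

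**Figure D3:**
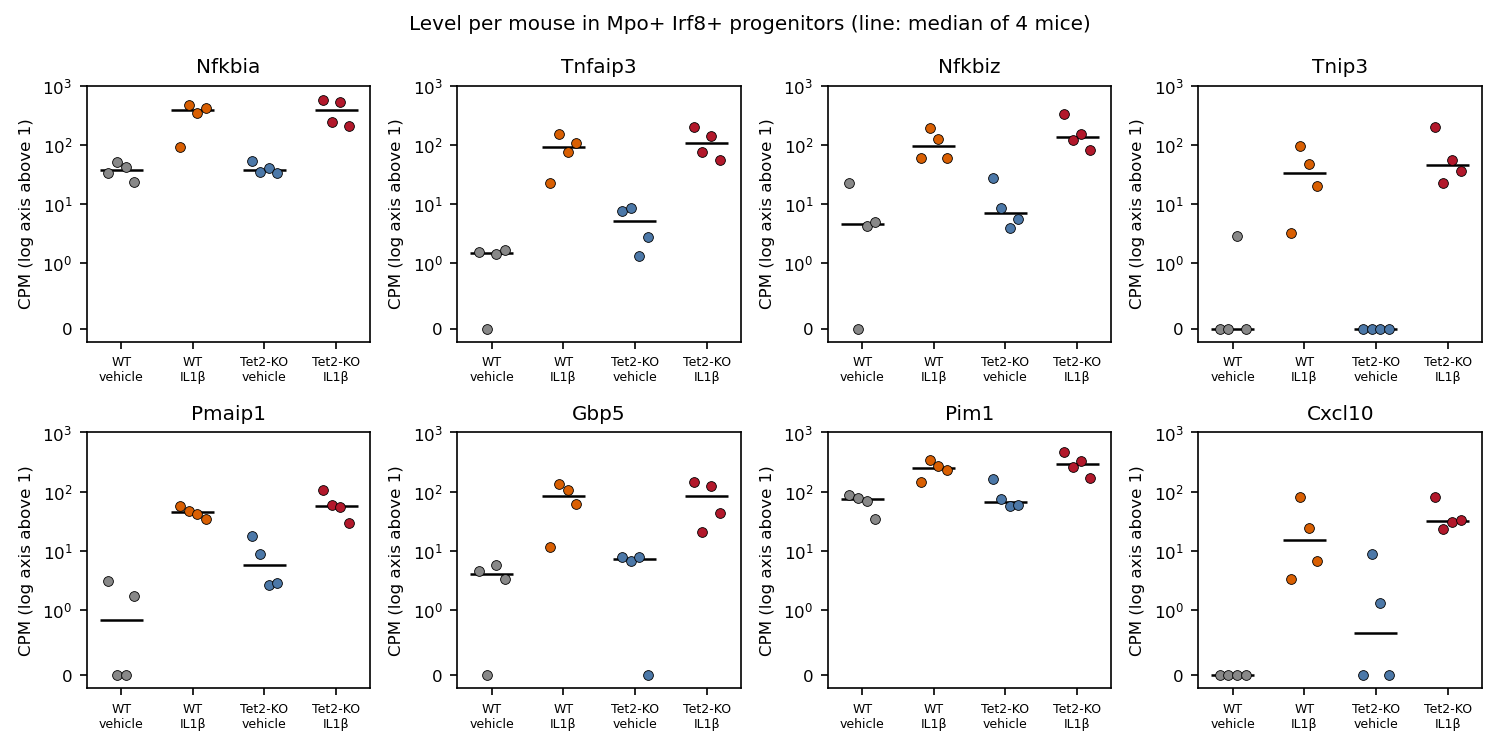
CPM per mouse (y axis, logarithmic above 1 CPM and linear below) of 8 genes that rose with IL1β in Mpo+ Irf8+ progenitors of both genotypes, 1 point per mouse and a line at the group median. Nfkbia moves from 23.5 to 53.7 CPM in the 8 vehicle mice to 92.3 to 570 CPM in the 8 IL1β mice, and Tnip3 and Cxcl10 are at 0 in most vehicle mice.

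Several of these genes rose outside the progenitors as well. In the erythroid cells of the same libraries Nfkbia went from 9.07 to 17.5 CPM with vehicle to 185 to 253 CPM with IL1β, and Tnfaip3 from 1.80 to 4.23 CPM to 39.2 to 61.8 CPM. A UMI of Nfkbia was found in 10.7% and 12.4% of erythroid cells of WT and Tet2-KO vehicle libraries and in 64.0% and 65.6% with IL1β, and in 23.99% and 24.5% of the progenitors with vehicle and 63.9% and 74.9% with IL1β. Its level in the treated progenitors was 189, 419, 381 and 316 CPM in the 2 WT and 2 Tet2-KO libraries, against 190, 253, 216 and 185 CPM in erythroid cells. For Nfkbiz the level was higher in the progenitors with either treatment. It was found in 7.17% and 6.86% of the progenitors with vehicle and 42.4% and 48.6% with IL1β, and in 2.26% and 2.39% of erythroid cells with vehicle and 13.9% and 13.1% with IL1β. With IL1β Tnip3 was found in 13.3% and 22.9% against 1.27% and 0.910%, and Tnf in 18.8% and 18.9% against 1.32% and 1.13%. In erythroid cells these genes were higher with IL1β too, at a lower level: Tnip3 lay at 0 to 0.191 CPM with vehicle and 1.14 to 3.58 CPM with IL1β, Tnf at 0.234 to 0.513 and 1.03 to 2.95 CPM, and Cxcl10 at 0.149 to 0.705 and 2.93 to 5.81 CPM. Pmaip1 lay at 0.217 to 1.51 and 1.37 to 3.92 CPM and Cxcl2 at 0.0849 to 2.15 and 1.37 to 7.34 CPM, with an overlap between the treatments for both. What part free RNA or a response shared by other marrow cells had in the rise of these genes was not tested.

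Pmaip1, the gene for the BH3-only protein NOXA that promotes cell death, rose in both genotypes. WT vehicle mice had 3.06, 0, 0 and 1.68 CPM (3 UMIs) and WT IL1β mice 56.7, 47.7, 41.8 and 33.7 CPM, a count ratio of 35.5 (counting interval 11.6 to 177), and Tet2-KO mice had 17.9, 8.73, 2.6 and 2.79 against 104, 60.3, 55.4 and 29.4 CPM. The groups did not overlap, and 28.6% and 30.3% of treated progenitors in the WT and Tet2-KO libraries held a UMI, against 1.95% and 1.68% of treated erythroid cells. Gbp5, an interferon-induced GTPase gene that promotes inflammasome assembly, went from 4.6, 0, 5.72 and 3.36 CPM to 11.3, 136, 105 and 60.7 CPM in WT and from 7.68, 6.55, 7.8 and 0 CPM to 143, 20.8, 126 and 42.5 CPM in Tet2-KO, again without overlap (3.75 ± 0.76 and 3.66 ± 0.70 on the log2 scale, adjusted p = 0.0026 and 0.0013). Gbp5 was higher with IL1β in erythroid cells as well, from 0.467 to 0.641 CPM with vehicle to 12.5 to 18.7 CPM with IL1β. Pim1, for a survival kinase induced by cytokines, stood higher from the start, at 87.3, 77.2, 70.1 and 33.6 CPM in WT vehicle mice, 146, 341, 272 and 236 CPM in WT IL1β mice, 164, 74.2, 55.9 and 58.5 CPM in Tet2-KO vehicle mice and 472, 264, 328 and 170 CPM in Tet2-KO IL1β mice (1.85 ± 0.33 and 1.84 ± 0.30, adjusted p = 0.00076 and 0.00036). In erythroid cells Pim1 lay at 22.04 to 37.3 CPM with vehicle and 58.1 to 69.8 CPM with IL1β, without overlap. It was the gene called in a list of 12 tested JAK-STAT mediators in each genotype. That is 8.33% of the list, against 2.46% of all tested genes higher in WT and 5.56% in Tet2-KO. The WT calls of Gbp5, Tnf, Tnip3 and Cxcl10 were lost without the pair of WT libraries whose hashtag calls crossed (adjusted p = 0.26, 0.18, 0.38 and 0.17), whereas Nfkbia, Tnfaip3, Nfkbiz, Pim1 and Junb passed under all 28 alternatives in both genotypes.

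AP-1 and other immediate early genes rose in part. Of 20 tested, 3 rose and none fell in WT (median log2 fold change 0.88, or 0.0995 without WT IL1β mouse 1, 0.48 without WT vehicle mouse 3 and 1.35 without the pair of WT libraries whose hashtag calls crossed) and 7 rose and none fell in Tet2-KO (median 0.67, or -0.064 without Tet2-KO IL1β mouse 2, 0.43 without vehicle mouse 3 and 1.01 without vehicle mouse 1). Junb, the AP-1 subunit gene called in both genotypes, had 104, 51.5, 40.1 and 43.7 CPM in WT vehicle mice, 168, 239, 131 and 189 in WT IL1β mice, 123, 91.7, 54.6 and 51.5 in Tet2-KO vehicle mice and 318, 245, 197 and 131 CPM in Tet2-KO IL1β mice (without overlap in either genotype, 1.49 ± 0.31 and 1.53 ± 0.28 on the log2 scale, adjusted p = 0.0029 and 0.00083). Ier3 rose by 2.20 ± 0.47 and 2.17 ± 0.39 and the phosphatase gene Dusp1 by 2.27 ± 0.64 and 1.75 ± 0.54, in WT and Tet2-KO, with an overlap of the groups for Dusp1 in both. In Tet2-KO Dusp2, at 1.30 ± 0.34, and Zfp36l1, for a protein that destabilises mRNA, at 1.46 ± 0.39, passed as well. Junb also rose in erythroid cells, from 23.5 to 42.8 CPM with vehicle to 113 to 166 CPM with IL1β.

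Interferon response genes did not move together. Of 20 tested, 3 rose and 4 fell in WT and 1 rose and 4 fell in Tet2-KO, with medians of -0.001 and 0.12. The 1 that rose in Tet2-KO is 5% of the list, against 5.56% of all tested genes. Neither median kept its sign over the alternatives, which gave -0.22 to 0.21 in WT and -0.20 to 0.27 in Tet2-KO. The Tet2-KO median was below 0 under the stricter rule, with cells thinned to 5000 UMIs and without Tet2-KO IL1β mouse 2 (-0.20, -0.035 and -0.099). The chemokine gene Cxcl10 was at 0 in all WT vehicle mice and at 3.24, 81.8, 23.9 and 6.75 CPM in WT IL1β mice, at least 13.4-fold higher against the floor of 3 UMIs (lower limit 10.04 with the counting error of both groups), and at 0, 8.73, 1.3 and 0 against 82.3, 22.9, 30.2 and 32.7 CPM in Tet2-KO (3.95 ± 0.82, adjusted p = 0.0025). Psmb8, an immunoproteasome subunit gene, moved the other way in both genotypes, from 562, 334, 431 and 397 CPM to 293, 273, 194 and 297 CPM in WT and from 438, 443, 543 and 598 CPM to 236, 272, 252 and 258 CPM in Tet2-KO, without overlap (-0.76 ± 0.17 and -0.98 ± 0.16, adjusted p = 0.0052 and 0.00033). Bst2 and Ifitm2 fell in both genotypes as well. Among 13 tested genes of MHC class I and its peptide supply, 2 fell in WT, Psmb8 and Psmb10, and 2 fell and 2 rose in Tet2-KO, where Psmb8 and Psmb9 fell and Tap2 (0.77 ± 0.21) and H2-K1 (0.38 ± 0.12) rose.

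Genes of stem and early progenitor cells rose with IL1β in Tet2-KO. Of 20 tested, 9 rose and none fell (median log2 fold change 0.79), and in WT 3 rose and 1 fell (median 0.31, or 0.15 under the stricter rule and 0.16 with libraries as replicates), but the difference between the genotypes passed the test for none of them. Kit, the receptor for stem cell factor, had 89.6, 69.9, 72.8 and 93.3 CPM in Tet2-KO vehicle mice and 176, 185, 171 and 157 CPM in Tet2-KO IL1β mice (1.08 ± 0.20, adjusted p = 0.0011). In WT it had 95, 90, 73 and 85.7 CPM against 115, 245, 95.6 and 108 CPM, which also did not overlap but did not pass (0.62 ± 0.22, adjusted p = 0.091). Flt3 had 56.3, 37.1, 42.9 and 39 CPM with vehicle and 121, 116, 45.4 and 75.2 CPM with IL1β in Tet2-KO, with an overlap of the groups (1.10 ± 0.25, adjusted p = 0.0041). In WT it had 40.1 to 63.9 and 27 to 59.7 CPM, with an overlap too. Its adjusted p was 0.069 in Tet2-KO in the highest of the alternatives, and the call was lost with libraries as replicates and without Tet2-KO IL1β mouse 2. Adgrg1 (0.95 ± 0.20), Adgrl4 (0.89 ± 0.19) and the cell cycle kinase gene Cdk6 (0.49 ± 0.12) rose in Tet2-KO too, and Myb, a factor of progenitor proliferation, rose in both genotypes (0.51 ± 0.15 and 0.58 ± 0.15).

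Txnip, for a thioredoxin inhibitor that limits glucose uptake, went from 23, 28.4, 45.5 and 33.4 CPM to 82.3, 127, 90.7 and 45.8 CPM in Tet2-KO (1.39 ± 0.26, adjusted p = 0.00099) and from 28.6 to 40.3 CPM to 64.8 to 101 CPM in WT (1.06 ± 0.28, adjusted p = 0.021), without overlap in either. The WT call was lost under 10 of 28 alternatives, and the Tet2-KO call under none. Of 21 tested cytokine receptors, 1 rose in WT, the TNF receptor gene Tnfrsf1b (1.86 ± 0.44), and 6 rose in Tet2-KO, among them Tnfrsf1b (1.21 ± 0.35), Kit, Flt3 and the interferon γ receptor gene Ifngr1 (0.73 ± 0.20), and none fell. That is 4.76% in WT and 28.6% in Tet2-KO, against 2.46% and 5.56% of all tested genes higher. The genes that sense IL1β itself were thinly covered. Il1r1, the signalling receptor, lay at 0 to 16.8 CPM in all mice and was too low to be tested, and of 24 IL1 pathway genes 8 were tested, 1 of which, the inflammasome adaptor gene Pycard, fell in both genotypes (-0.76 ± 0.19 and -0.68 ± 0.18). That 1 gene is 12.5% of the 8, against 3.8% of all tested genes lower in WT and 6.93% in Tet2-KO.

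Transcription factors of the lineage choice gave few calls, all of them higher. Of 14 tested monocyte and dendritic factors, 1 rose in WT and 3 in Tet2-KO, and of 10 granulocyte factors 4 rose in WT and 2 in Tet2-KO, with none lower on either list. The 4 granulocyte factors in WT were Gfi1, Xbp1, Myb and Gata2, of which Xbp1 and Myb are also given with other lists. Of all tested genes 2.46% rose in WT and 5.56% in Tet2-KO, so that 1 of 14 in WT is little more than that background. Zeb2, which supports monocytes and dendritic cells, had 294, 412, 308 and 301 CPM in WT vehicle mice, 369, 695, 526 and 405 in WT IL1β mice, 340, 284, 360 and 311 in Tet2-KO vehicle mice and 680, 539, 449 and 448 CPM in Tet2-KO IL1β mice (0.63 ± 0.18 and 0.70 ± 0.17, adjusted p = 0.028 and 0.0074), with an overlap in WT. Irf1, an interferon and NF-κB target, went from 21.8 to 35.8 CPM to 54.9 to 64.5 CPM in Tet2-KO (1.27 ± 0.25, adjusted p = 0.0015). Gfi1, the repressor that favours neutrophils over monocytes, had 23, 12.9, 22.9 and 21.9 CPM in WT vehicle mice and 47, 81.8, 35.8 and 67.5 CPM in WT IL1β mice (1.21 ± 0.35, adjusted p = 0.032), and passed in Tet2-KO as well (1.00 ± 0.33, adjusted p = 0.042), although its call was lost under 10 of 27 alternatives in WT and 14 of 27 in Tet2-KO.

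**Figure D4:**
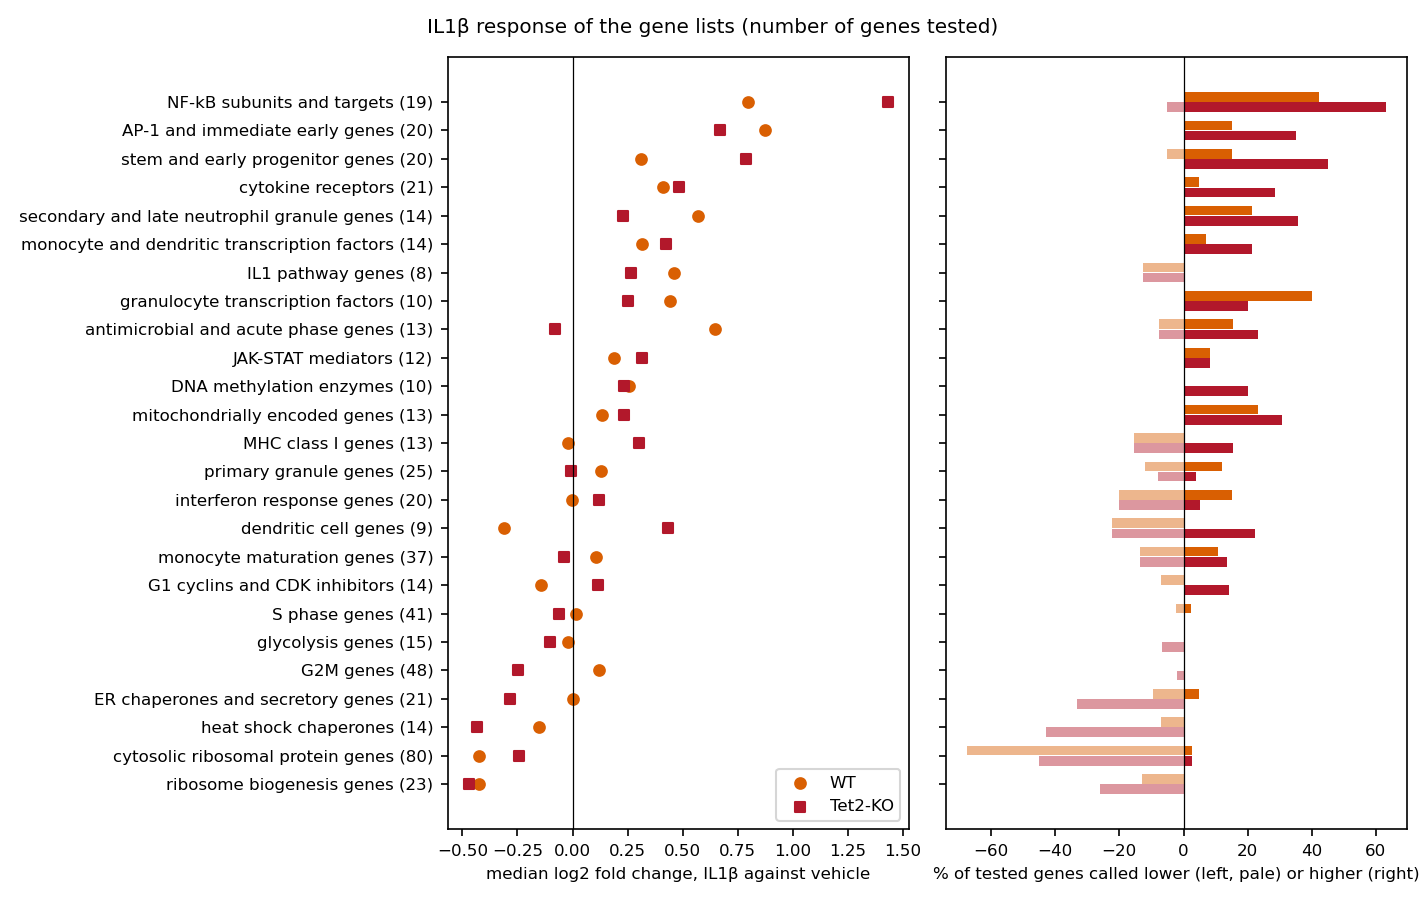
Median log2 fold change of each gene list with IL1β (left, x axis) and percent of its tested genes called higher or, in pale bars to the left of 0, lower (right, x axis), for WT (orange) and Tet2-KO (red), with the number of tested genes beside each list. Among the lists drawn, which leave out the markers of other cell types, NF-κB genes have the largest median in Tet2-KO at 1.43, and ribosome biogenesis genes have the lowest there at -0.47.

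Maturation genes split. Of 37 tested monocyte maturation genes 4 rose and 5 fell in WT and 5 rose and 5 fell in Tet2-KO. Cst3 and Tyrobp, for a protease inhibitor of dendritic cells and a signalling adaptor of myeloid receptors, fell in both genotypes, Cst3 from 651 to 810 CPM to 405 to 567 CPM in WT (-0.53 ± 0.15) and from 646 to 990 CPM to 450 to 630 CPM in Tet2-KO (-0.70 ± 0.14). Tyrobp went from 507, 322, 518 and 393 CPM to 214, 259, 323 and 243 CPM in WT (-0.79 ± 0.20, adjusted p = 0.018). Rising members were Cybb, the NADPH oxidase subunit gene, at 16.8, 0, 47.2 and 21.9 CPM in WT vehicle mice and 82.6, 266, 102 and 74.2 CPM in WT IL1β mice (2.05 ± 0.42, adjusted p = 0.0028), the granulin precursor gene Grn (1.10 ± 0.21 in Tet2-KO) and the chemokine gene Ccl9. Ccl9 had 166, 124, 110 and 141 CPM in Tet2-KO vehicle mice and 406, 277, 348 and 255 CPM in Tet2-KO IL1β mice (1.23 ± 0.18, adjusted p = 9e-05), and in WT 155, 116, 116 and 129 against 175, 259, 227 and 142 CPM with an overlap and no call (0.59 ± 0.19, adjusted p = 0.059).

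Of 9 tested dendritic cell genes Cst3 and Bst2 fell in both genotypes, and Flt3 and Tcf4 rose in Tet2-KO. Each pair is 22.2% of the list. Of all tested genes 3.8% fell in WT, and 5.56% rose and 6.93% fell in Tet2-KO.

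Of 25 genes on the primary granule list, not all of which encode granule proteins, 3 rose and 3 fell in WT (12% each). In Tet2-KO 1 rose and 2 fell (4% and 8%). Of all tested genes 2.46% rose and 3.8% fell in WT and 5.56% and 6.93% in Tet2-KO, so the Tet2-KO counts were near that background. Ctsg, the cathepsin G gene, fell in both (-0.62 ± 0.15 and -0.64 ± 0.15), from 2035 to 2844 CPM to 1140 to 2080.2 CPM in Tet2-KO, and Elane fell in Tet2-KO by 0.40 on the log2 scale (SE 0.11, adjusted p = 0.019) and had -0.06 ± 0.11 in WT. By library the Tet2-KO progenitors held 3573 and 3501 CPM of Elane with vehicle and 3104 and 3500 CPM with IL1β. A UMI of Elane was found in 73.7% of them with vehicle and 84.6% with IL1β. Gstm1, which is on the list but encodes a glutathione transferase and not a granule protein, rose in both genotypes (1.15 ± 0.21 and 0.90 ± 0.20). Of 14 tested genes of secondary and late neutrophil granules 3 rose in WT and 5 in Tet2-KO and none fell. Lcn2, for the iron-binding protein lipocalin 2, had 15.3, 12.9, 15.7 and 15.1 CPM in WT vehicle mice, 97.2, 130, 50.8 and 13.5 in WT IL1β mice, 15.4, 28.4, 10.4 and 15.3 in Tet2-KO vehicle mice and 60.3, 29.1, 116 and 91.6 CPM in Tet2-KO IL1β mice (2.29 ± 0.42 and 2.03 ± 0.42, adjusted p = 0.00098 and 0.0022). WT IL1β mouse 4 lay among the vehicle mice, and erythroid cells held 10.8 to 64.3 CPM of Lcn2 with vehicle and 37.2 to 97.5 CPM with IL1β. By library the treated progenitors held 97.6, 45.1, 41.3 and 98.5 CPM of Lcn2, against 97.5, 37.2, 41.2 and 44.7 CPM in the erythroid cells of the same WT and Tet2-KO libraries. A UMI of Lcn2 was found in 33.7% and 28.6% of treated progenitors of WT and Tet2-KO, against 8.98% and 7.78% of treated erythroid cells, which were the deeper, and in 9.03% and 10.1% against 6.17% and 4.45% with vehicle. What part free RNA had in the level of Lcn2 was not tested. Antimicrobial and acute phase genes, 13 of them tested, held 2 that rose, Saa3 and Lcn2, and 1 that fell, the protease inhibitor gene Slpi, in WT, and in Tet2-KO 3 that rose, Pglyrp1 with them, and again Slpi that fell. Pglyrp1 was at -0.28 on the log2 scale under the stricter rule, without a call. Saa3, for an acute phase apolipoprotein, was found in 1 of 8 vehicle mice, at 1.43 CPM, and in 6 of 8 IL1β mice, at 59.9, 54.5, 23.9 and 0 CPM in WT and 5.49, 0, 20.2 and 26.2 CPM in Tet2-KO, where the rise was at least 9.26-fold against the floor of 3 UMIs (lower limit 6.51 with the counting error of both groups). The rise of the late granule gene Retnlg in Tet2-KO (4.96 ± 1.02) rested on IL1β mouse 2, at 372 CPM against 5.04 to 6.54 CPM in the other 3, and without that mouse its call was lost.

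Many genes of the ribosome fell with IL1β. Of 80 genes for cytosolic ribosomal proteins, all tested, 54 fell and 2 rose in WT (median log2 fold change -0.43) and 36 fell and 2 rose in Tet2-KO (median -0.24). This list was drawn up after their change had been seen. Rpl32, as an example, had 7885, 7036, 7014 and 7198 CPM in WT vehicle mice and 4378, 4165, 3315 and 3751 CPM in WT IL1β mice (-0.90 ± 0.10, adjusted p = 1.5e-06), and 6606, 6483, 8487 and 8461 CPM against 4350, 4862, 5217 and 5295 CPM in Tet2-KO (-0.61 ± 0.10, adjusted p = 0.00025). The summed level of the 80 genes was 337060 to 361370 CPM in WT vehicle mice and 256949 to 298995 CPM in WT IL1β mice, and 336654 to 381597 against 308317 to 318549 CPM in Tet2-KO, without overlap in either genotype. On a plain total other genes gain where so large a group falls. The mouse values use totals adjusted by TMM scaling, and how much of such a gain was left in them was not tested. Rpl32 fell in erythroid cells too, from 5177 to 6519 CPM with vehicle to 3090 to 4381 CPM with IL1β. Ribosome biogenesis genes lay lower as well, with 3 of 23 called in WT and 6 of 23 in Tet2-KO and none raised (medians -0.43 and -0.47). The WT median was -0.22 under the stricter rule and -0.26 without WT IL1β mouse 3. Among them Nhp2, a subunit gene of the complex that modifies ribosomal RNA, fell by 0.72 (SE 0.20) and 1.04 (SE 0.20) on the log2 scale.

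**Figure D5:**
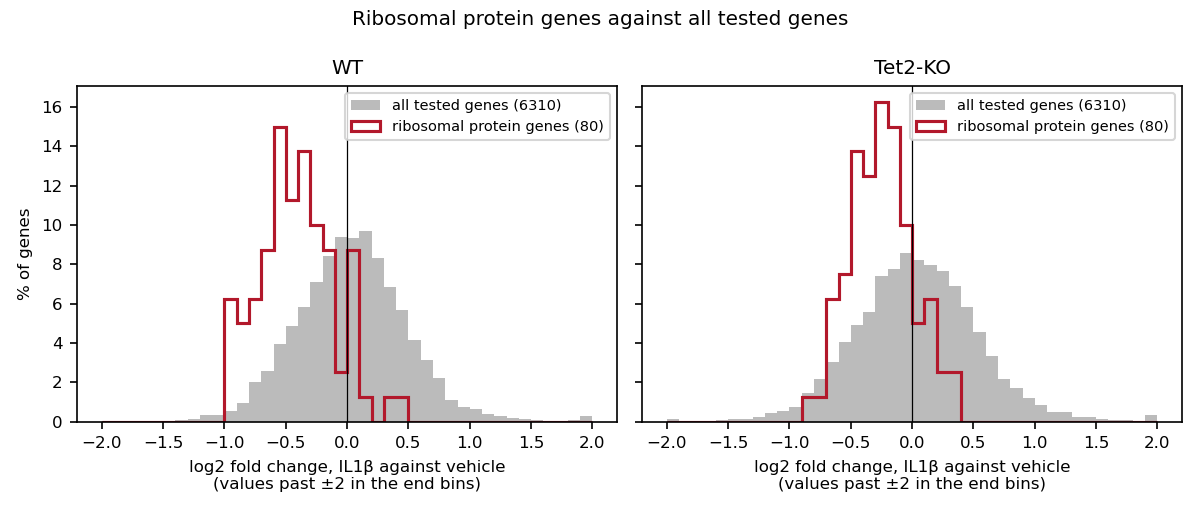
Distribution of the log2 fold change with IL1β (x axis, values past ±2 in the end bins) over all 6310 tested genes (grey) and over the 80 ribosomal protein genes (red line), in percent of each set (y axis), for WT (left) and Tet2-KO (right). The ribosomal protein genes centre on -0.43 in WT and -0.24 in Tet2-KO, to the left of all tested genes, whose medians are 0.037 and 0.030.

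Some chaperone genes fell. Of 14 heat shock chaperones 6 fell in Tet2-KO and 1 in WT, and of 21 chaperones and secretory genes of the endoplasmic reticulum 7 fell in Tet2-KO, while 2 fell and 1, the transcription factor gene Xbp1 (0.78 ± 0.20), rose in WT. The difference between genotypes passed for none. Sdf2l1, an endoplasmic reticulum stress gene, had 166, 157, 290 and 216 CPM in Tet2-KO vehicle mice and 54.9, 47.8, 70.6 and 68.7 CPM in Tet2-KO IL1β mice (-1.83 ± 0.28, adjusted p = 0.00014), and 170, 51.5, 217 and 123 against 102, 40.9, 50.8 and 60.7 CPM in WT, where the groups overlapped (-1.15 ± 0.27, adjusted p = 0.01). Hspa8 fell by 0.70 (SE 0.14), Manf by 0.97 (SE 0.20) and Creld2 by 1.36 (SE 0.29) on the log2 scale in Tet2-KO. Exosc7, a subunit gene of the RNA exosome, had 112, 51.5, 100 and 114 CPM in WT vehicle mice and 34, 34.1, 26.9 and 33.7 CPM in WT IL1β mice (-1.70 ± 0.24, adjusted p = 4.4e-05), and in Tet2-KO 80.8 to 124 CPM against 43.9 to 78.5 CPM. Of the 13 mitochondrially encoded genes 3 rose in WT and 4 in Tet2-KO, led by mt-Co1 (0.69 ± 0.11 and 0.75 ± 0.11), which moved with the share of mitochondrial UMIs given above. That list, too, was described after its change had been seen.

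S phase and G2M genes gave few calls, none beyond the share called among all tested genes (2.46% higher and 3.8% lower in WT, 5.56% and 6.93% in Tet2-KO). Of 41 S phase genes 1 rose and 1 fell in WT and none was called in Tet2-KO, and of 48 G2M genes none was called in WT and 1, the tubulin gene Tubb4b, fell in Tet2-KO. At an unadjusted p under 0.05, 2 S phase genes were higher and 5 lower in each genotype, and 3 G2M genes were higher and 2 lower in WT and 1 higher and 11 lower in Tet2-KO. Of all 6310 tested genes 648 were higher and 696 lower at that threshold in WT, and 826 and 911 in Tet2-KO. Ccnd1, for the G1 cyclin D1, had 52.1, 38.6, 47.2 and 47.1 CPM in WT vehicle mice and 11.3, 6.82, 17.9 and 33.7 CPM in WT IL1β mice (-1.62 ± 0.34, adjusted p = 0.0038), and lay at 10.2, 15.3, 23.4 and 19.5 CPM in Tet2-KO vehicle mice. Of 14 G1 cyclins and CDK inhibitors Ccnd1 was the call in WT, and Cdk6 and Cdk2 rose in Tet2-KO. Of 15 glycolysis genes 1 (6.67%) fell in Tet2-KO, the lactate dehydrogenase gene Ldha, a share near that of all tested genes. Among 10 genes of DNA methylation and demethylation none was called in WT and 2 rose in Tet2-KO, the cytidine deaminase gene Apobec3 (0.69 ± 0.19) and Tet2 itself.

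The targeted gene gave no check of the genotype. Tet2 UMIs stood at 46, 51.5, 35.8 and 53.8 CPM in WT vehicle mice, 69.6, 75, 86.6 and 47.2 CPM in WT IL1β mice, 51.2, 41.5, 45.5 and 32 CPM in Tet2-KO vehicle mice and 93.3, 93.6, 65.5 and 88.3 CPM in Tet2-KO IL1β mice. The libraries count the 3′ ends of transcripts, and a 3′ tag outside the deleted exons is still read from a deleted allele. The level rose with IL1β in Tet2-KO (1.05 ± 0.21, adjusted p = 0.0020) and lay higher without a call in WT (0.67 ± 0.22, adjusted p = 0.073), and the difference between the genotypes was -0.11 ± 0.22 with vehicle and 0.27 ± 0.22 with IL1β.

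Between the genotypes no gene of the 6310 tested was called in the Mpo+ Irf8+ progenitors, either with vehicle (0% higher and 0% lower) or with IL1β (0% and 0%). At an unadjusted p under 0.05 edgeR gave 118 genes higher and 87 lower in Tet2-KO with vehicle and 237 and 202 with IL1β, and DESeq2 called 1 and 2 genes. The WT and Tet2-KO IL1β comparisons share no mice with each other, but each genotype comparison shares mice with both of them. Lowest in p with vehicle were Ccnd1 (-1.39 ± 0.28) and Elane (0.57 ± 0.11), both at an adjusted p of 0.075. Ccnd1 lay at 38.6 to 52.1 CPM in WT and 10.2 to 23.4 CPM in Tet2-KO, and Elane at 2665, 2135, 3748 and 2451 CPM in WT and 3921, 4441, 4277 and 3769 CPM in Tet2-KO, so that neither overlapped. Such separation was seen for 1.51% of tested genes in the higher and 1.09% in the lower direction with vehicle, and for 1.82% and 1.14% with IL1β. Erythroid cells held 6.03 and 10.7 CPM of Ccnd1 in the WT vehicle and 1.35 and 2.69 CPM in the Tet2-KO vehicle libraries. For Elane they held 18.8 and 23.9 against 45.2 and 24.5 CPM. The primary granule list summed to 18027.7 to 21070.8 CPM in Tet2-KO vehicle mice and 12296.9 to 17214.7 CPM in WT vehicle mice. Genes of the rule were not taken out of such sums, and the sum was not tested. Of its 25 tested genes, none was called.

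The test of whether the response to IL1β differed between the genotypes called 1 gene of 6310 (0.0158% lower, 0% higher; 137 and 129 genes higher and lower at an unadjusted p under 0.05, and 0 by DESeq2). Prss34, a serine protease gene of basophils, had 88.8, 0, 95.8 and 8.41 CPM in WT vehicle mice, 27.5, 27.3, 343 and 425 in WT IL1β mice, 156, 336, 366 and 312 in Tet2-KO vehicle mice and 54.9, 6.24, 20.2 and 29.4 CPM in Tet2-KO IL1β mice. It fell with IL1β in Tet2-KO (-3.67 ± 0.69, adjusted p = 0.0011), lay at 1.63 ± 0.58 without a call in WT (adjusted p = 0.096), and differed between the 2 responses by -5.29 ± 0.92 (adjusted p = 0.017). WT IL1β mice 3 and 4, of 1 library, were the high ones, and without either the adjusted p of the difference was 0.24 and 0.064. Over all cells of a library, those with no clear hashtag included, the progenitors held 280 and 49.6 CPM in the WT vehicle libraries and 141 and 314 CPM in the WT IL1β libraries, with an overlap. They held 154 and 273 CPM in the Tet2-KO vehicle libraries and 51.4 and 25.5 CPM in the Tet2-KO IL1β libraries. Erythroid cells held 35.8 and 47.0 CPM of Prss34 in the WT vehicle, 134 and 173 in the WT IL1β, 26.1 and 50.6 in the Tet2-KO vehicle and 17.97 and 71.2 CPM in the Tet2-KO IL1β libraries. Over all 28 alternatives the call was lost in 10, among them without Tet2-KO IL1β mouse 2 (adjusted p = 0.10). The other basophil and eosinophil markers, summed without Prss34 (a sum chosen after seeing the data), lay at 64.3 to 165 CPM in WT vehicle mice, at 97.2, 102, 391 and 513 in WT IL1β mice, at 199.6 to 397 in Tet2-KO vehicle mice and at 81.8 to 154 CPM in Tet2-KO IL1β mice. They were high in the same WT IL1β mice as Prss34. Of the 12 markers with Prss34, 2, Gzmb and Ear2, were at 0 in all mice and 3 were high enough to be tested, of which Prss34 fell in Tet2-KO and none was called in WT. The part of basophil RNA or of basophil-primed cells in this result was not tested.

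Set beside granulocyte progenitors of the same mice, the response of the Mpo+ Irf8+ progenitors differed at few genes. Of 8987 genes tested for the difference of the 2 responses, 9 were higher (0.1%) and 6 lower (0.0668%) in Tet2-KO, and none was called in WT (0% and 0%, with 222 and 166 at an unadjusted p under 0.05). Whether that differed between genotypes was not tested. Nfkbia rose by 3.22 on the log2 scale in the Mpo+ Irf8+ progenitors of Tet2-KO mice and by 2.03 in their granulocyte progenitors (difference 1.08 ± 0.21 in the joint fit, adjusted p = 0.0025). For Nfkbiz the values were 4.01 and 1.68 (difference 1.96 ± 0.37, adjusted p = 0.0023), for Pim1 1.84 and 0.40 (1.23 ± 0.20, adjusted p = 0.00021) and for Junb 1.53 and 0.45 (0.86 ± 0.18, adjusted p = 0.0093). These were 4 of the 9 that were higher. Retnlg (3.86 ± 0.67), which rested on 1 mouse, Ccl5, with 44 UMIs over 10 of the 16 mice, Lyz2, S100a6 and Pou2f2 were the others. Lyz2 had -0.08 in the Mpo+ Irf8+ progenitors and fell by 1.28 in granulocyte progenitors (difference 1.09 ± 0.20, adjusted p = 0.0021). In Tet2-KO libraries the Mpo+ Irf8+ progenitors held 89.5 to 125 CPM of Lyz2 and erythroid cells 42.9 to 68.6 CPM. In WT libraries the levels were 75.0 to 107 and 55.6 to 112 CPM. What part free RNA had in the level of Lyz2 was not tested. The granulocyte progenitor gate set no limit on the later monocyte genes, and the part of monocyte-line cells in it was not tested. The 6 that were lower were Prss34 (-4.75 ± 0.51), Fcer1a, Prg2, Mcpt8 (-2.23 ± 0.31), Cpa3 and Cd63, of which the first 5 are genes of basophils, mast cells or eosinophils.

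Markers of other cells were present and some moved with treatment. Of 11 tested erythroid markers none was called in WT and 6 fell in Tet2-KO. The 12 erythroid markers summed to 737 to 2846 CPM in WT vehicle, 252 to 1909 in WT IL1β, 1085 to 2474 in Tet2-KO vehicle and 87.3 to 1089 CPM in Tet2-KO IL1β mice. The β-globin gene Hbb-bs stood at 125, 210, 138 and 368 CPM in Tet2-KO vehicle mice and at 11, 4.16, 5.04 and 6.54 CPM with IL1β. Of 3 tested lymphoid markers Jchain was called higher in both genotypes and Dntt fell in WT. The lymphoid markers summed to 81.5 to 154 CPM in WT vehicle mice and 83.6 to 1411 CPM in WT IL1β mice. Nearly all of that was Jchain, the antibody J chain gene, at 910.3 and 1357 CPM in WT IL1β mice 1 and 2 and 35.8 and 54 CPM in mice 3 and 4, so that it followed a library, and at 1169 CPM in Tet2-KO IL1β mouse 3 against 29.4 to 68.6 CPM in the others. With vehicle Tet2-KO mice had 7.68, 15.3, 129 and 20.9 CPM, and without IL1β mouse 3 the Tet2-KO change was 0.085 on the log2 scale (adjusted p = 0.97). Dntt, a gene of lymphoid progenitors, went the other way in WT, from 29.1, 116, 17.2 and 45.4 CPM to 1.62, 0, 0 and 6.75 CPM, a count ratio of 19.2 (counting interval 5.10 to 162). Pf4, a platelet gene and the megakaryocyte marker high enough to be tested, was called lower with IL1β in Tet2-KO (-4.14 ± 1.09), which rested on 1 mouse. It reached 1249 CPM in Tet2-KO vehicle mouse 1 and lay at 6.75 to 28.4 CPM in the other 15 mice, and without that mouse the change was -0.36 (adjusted p = 0.64). None of the 12 macrophage markers was high enough to be tested. Summed, they lay at 12.9 to 26.04 CPM in WT vehicle, 13.1 to 30.7 in Tet2-KO vehicle and 12.5 to 35.3 CPM in Tet2-KO IL1β mice, and at 40.5 to 518 CPM in WT IL1β mice. The part of such RNA in the results was not tested. The T cell genes Cd3e and Cd3d had 1 and 5 UMIs over all mice and the B cell gene Ebf1 had 3.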

How the data were processed

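Marrow cells depleted of lineage-positive cells were profiled by droplet 3′ RNA sequencing in 8 libraries, each a pool of 2 mice of 1 group. The deposited matrices hold UMI counts per gene and cell that the authors made with Cell Ranger 3.1.0 on mm10 (the submitters' processing notes also name Seurat 3.2.3), not normalized, beside counts of the hashtag antibodies. Intronic counting and ambient RNA removal are not given in the sources used here. Library totals are given with the samples, and precision was set by the 10 to 126 cells per mouse.

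Cells were assigned to mice from the hashtag counts with HTODemux (Seurat 5.3.0), and UMIs of the assigned cells were summed per mouse. The 12 genes of the rule stayed in the library sizes but were not tested. Genes were filtered with filterByExpr, scaled by TMM and tested with edgeR 4.0.16 (quasi-likelihood, R 4.3.3) over all 16 mice, with Benjamini-Hochberg adjustment and a threshold of 0.05. Standard errors are the absolute log2 fold change divided by the root of F. Shares were compared by two-sided exact permutation tests (scipy 1.17.1). The difference from granulocyte progenitors was fitted on the sums of both cell types. The test was checked on simulated data. An item is not reported here by name.

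The members, the 28 gene lists and the tests were chosen with earlier results of these data known. Named genes were up to 8 called genes per direction by size of change, among those that averaged 20 CPM or more. Without that minimum, up to 4 called genes per list were named by p. Up to 5 per direction were named for the interaction and for the difference from granulocyte progenitors, also without it. Genes used as markers or to describe the cells, those of the tables of other cell types, and the called members listed by name for a gene list were chosen after their values were seen, as were the lists of ribosomal and mitochondrially encoded genes.

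Alternatives were other size factors, DESeq2 1.42.0, no filter on low counts, blocks by mouse or pool number, sex as a covariate, no cells above 2 times the library median of UMIs, a stricter rule (10 Mpo and 2 Irf8 UMIs), cells thinned to 5000 UMIs, libraries as replicates, each mouse left out, mice with under 20 cells left out and the libraries of mixed sex left out.

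Mice of the same number shared no more than their group: over 24 pairs of same-numbered mice the correlations of their deviations from the group means were -0.061 to 0.10, so the numbers do not pair the samples.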

Additional observations from a re-analysis of the deposited data

Results flagged for a closer look

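Groups of 4 mice were examined for the share of cells and for part of the genes shown by mouse. In 10 of these 112 groups the gap of a mouse to the others was over Dixon's 95% critical value, as a share of the group's range. Pf4, Retnlg and Jchain, each with 1 mouse far above the others of a group, were not among the genes examined. Chance gives about 1 in 20 for normally spread values, a rate that counts near 0 need not follow. Below the others of their group were Tnfaip3 at 0 CPM in WT vehicle mouse 2, Gbp5 at 0 CPM in Tet2-KO vehicle mouse 4 and Exosc7 at 26.9 CPM in WT IL1β mouse 3. Above the others were Tnip3 at 2.86 CPM and Saa3 at 1.43 CPM in WT vehicle mouse 3, Cxcl10 at 8.73 CPM in Tet2-KO vehicle mouse 2, and Pim1 at 164 CPM in Tet2-KO vehicle mouse 1. Among treated mice, Tet2-KO IL1β mouse 1 stood apart for Cxcl2 at 176 CPM and Cxcl10 at 82.3 CPM, and WT IL1β mouse 2 for Kit at 245 CPM. WT vehicle mouse 2 had 10 cells and Tet2-KO IL1β mouse 1 had 17. Over all WT vehicle mice Saa3 had 1 UMI, Tnip3 2 and Tnfaip3 3, so these flags rest on counts near 0.

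The response of Prss34 to IL1β differed between the genotypes by -5.29 on the log2 scale (SE 0.92, edgeR adjusted p = 0.017). In Tet2-KO mice 15 genes had a response in the Mpo+ Irf8+ progenitors that differed from the one in granulocyte progenitors of the same mice by edgeR's test. The difference on the log2 scale was positive for Ccl5 (5.67), Retnlg (3.86), Nfkbiz (1.96), S100a6 (1.74), Pim1 (1.23), Lyz2 (1.09), Nfkbia (1.08), Junb (0.86) and Pou2f2 (0.75). Ccl5 had 44 UMIs over 10 of the 16 mice in these progenitors, and Retnlg rested on 1 mouse. The difference was negative for Prss34 (-4.75), Fcer1a (-4.73), Prg2 (-3.95), Mcpt8 (-2.23), Cpa3 (-2.19) and Cd63 (-0.81).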

How the results depend on the processing

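The number of genes called with IL1β, 395 in WT and 788 in Tet2-KO, fell to 125 and 418 under the stricter rule, 194 and 331 with cells thinned to 5000 UMIs, and 117 and 401 with libraries as replicates. DESeq2 called 510 in Tet2-KO, and without the libraries of mixed sex WT had 32. The stricter rule used 14 mice and thinning 15, and both also changed which cells met the rule. Libraries as replicates and the fit without the libraries of mixed sex had fewer samples. Why the counts moved was not tested for any setting, DESeq2 included. Leaving out single mice gave 150 to 440 in WT and 392 to 885 in Tet2-KO. Between the genotypes with vehicle the count of 0 became 1 with DESeq2, 31 without a filter, 4 with a replicate block by pool number, 2 with one by mouse number, 1 without the libraries of mixed sex, and 0 to 4 without single mice. With IL1β it became 2 with DESeq2, 32 without a filter, 3 with the block by mouse number, 2 under the stricter rule, 1 when thinned, 1 without the libraries of mixed sex, and 0 to 1 without single mice. The 1 interaction call became 15 without a filter, 0 to 2 without single mice, and 0 with DESeq2, without high-UMI cells, under the stricter rule, when thinned, with libraries as replicates, without mice of under 20 cells and without the libraries of mixed sex. For the difference from granulocyte progenitors WT had 1 call with other size factors, 12 without a filter and 0 to 3 without single mice, and Tet2-KO 31 without a filter. The replicate block gave 394 and 810 calls by pool and 324 and 689 by mouse number for IL1β in WT and Tet2-KO, and the numbers did not pair the mice. Pglyrp1 in Tet2-KO reversed to -0.28 under the stricter rule and Jchain to -2.44 when thinned. The share of cells in Tet2-KO differed by -0.747 percentage points with libraries as replicates. The genotype difference in share reversed to -0.287 as a percent of Mpo cells with vehicle, ran from -0.0865 to 0.691 without single mice there, and from -0.191 to 0.0477 with IL1β, where it was 0.0284 without WT IL1β mouse 4 and 0.0127 without Tet2-KO IL1β mouse 4. Of the named genes 12 of 63 in WT and 29 of 79 in Tet2-KO kept their call under all alternatives. Depth limits genes under 10 CPM in the mice with fewest cells.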
